A study of Mus musculus with 35 samples.

Results

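The 9 genes described here encode a Hedgehog ligand, its receptors and co-receptors, the transducer and the Gli transcription factors. They are Dhh, Hhip, Ptch1, Cdon, Boc, Smo, Gli1, Gli2 and Gli3, chosen by name from the pathway and found by gene name in the deposited transcript assemblies of mouse neural progenitor cells. They are 9 of 23905 gene symbols in the RNA tables, and each fell on 1 locus that joined no other named gene. Cultures were homozygous Mettl14 knockout (KO), heterozygous (Het) or wild type (WT), all from embryos. Mettl14 is a subunit of the enzyme that writes N6-methyladenosine (m6A) on messenger RNA. RNA was sequenced in 3 KO, 3 Het and 3 WT libraries of batch 1 and in 2 KO and 2 WT libraries of batch 3. H3K27ac, a mark of active promoters and enhancers, and H3K27me3, the Polycomb mark, were mapped in KO lines 530 and 534 and in WT lines 532 and 541, and m6A was mapped in WT cells with 2 immunoprecipitations and 2 inputs.

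The labels describe a floxed Mettl14 allele in G4 ES cells on a c57 background, recombined in a first cross by EIIa-Cre, which acts in the early embryo, and in a second by nestin-Cre, which acts in neural progenitors. They do not say which cross gave the cultures, and no embryonic day was used here. The RNA tables tie a library to its genotype and not to its culture line, so p-values measure the spread between libraries.

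In the Hedgehog pathway a secreted ligand binds the receptor Patched, which otherwise holds back the transducer Smoothened. Released Smoothened acts at the primary cilium and turns the Gli factors from repressors into activators, and Ptch1, Hhip and Gli1 are classical target genes that read out the activity of the pathway. In the embryonic brain Sonic hedgehog patterns the ventral neural tube and drives the division of progenitors, whereas Desert hedgehog, the ligand measured here, is best known from Schwann cells, vessels and the testis.

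The stretches of 250 bases before the start of 4 of the genes are shown because the RNA and chromatin results below turn on them: Dhh lost nearly all its RNA in KO cells, Gli2 gained RNA, Hhip lost RNA while its start kept H3K27ac, and Cdon lost RNA while its RefSeq-matching start carried no H3K27ac in either genotype, unlike an upstream start described below. Each is RefSeq sequence of GRCm38.p6, whose coordinates are those of mm10, read 5′ to 3′ on the gene's own strand and ending at the base before the start. Capitals mark CpG dinucleotides.
Dhh, chr15:98898541-98898790, minus strand: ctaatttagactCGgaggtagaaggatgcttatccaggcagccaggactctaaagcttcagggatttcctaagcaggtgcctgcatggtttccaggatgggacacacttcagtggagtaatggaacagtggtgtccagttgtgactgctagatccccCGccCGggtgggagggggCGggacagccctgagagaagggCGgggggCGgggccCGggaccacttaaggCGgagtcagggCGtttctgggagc
Gli2, chr1:119053620-119053869, minus strand: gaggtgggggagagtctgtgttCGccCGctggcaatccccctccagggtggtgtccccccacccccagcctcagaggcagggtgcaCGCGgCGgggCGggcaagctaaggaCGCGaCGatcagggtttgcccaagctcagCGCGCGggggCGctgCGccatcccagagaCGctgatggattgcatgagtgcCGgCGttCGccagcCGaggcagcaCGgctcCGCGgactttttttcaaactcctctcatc
Hhip, chr8:80058009-80058258, minus strand: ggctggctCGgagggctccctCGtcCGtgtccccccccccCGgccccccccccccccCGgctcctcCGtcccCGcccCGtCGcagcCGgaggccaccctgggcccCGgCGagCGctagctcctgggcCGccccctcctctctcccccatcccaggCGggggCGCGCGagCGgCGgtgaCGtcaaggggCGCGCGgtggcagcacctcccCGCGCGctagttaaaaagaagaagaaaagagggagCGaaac
Cdon, chr9:35451826-35452075, plus strand: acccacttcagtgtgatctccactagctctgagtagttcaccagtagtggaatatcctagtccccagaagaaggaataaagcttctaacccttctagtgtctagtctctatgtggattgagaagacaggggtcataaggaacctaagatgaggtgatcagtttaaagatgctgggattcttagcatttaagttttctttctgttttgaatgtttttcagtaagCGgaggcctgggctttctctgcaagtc
The Gli2 and Hhip stretches held 22 and 28 CpG, the Dhh stretch held 9 and the Cdon stretch 1, against a median of 6 over the 32851 promoters of the RefSeq table. Among the other members in that table, Ptch1 held 41 CpG, Gli3 34 and Smo 15, while Boc and Gli1 are named only. The Gli recognition sequence GACCACCCA, or TGGGTGGTC on the other strand, lay in none of the 7 windows of 250 bases before to 50 bases after the start and in 0.253% of all such windows. Its 6-letter core CCACCC, or GGGTGG, which the longer sequence contains, lay in 5 of the 7 (Dhh, Gli2, Gli3, Hhip and Smo) and in 31.5% of all. A match of letters is a description and not a site.

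Mettl14 itself was counted over its whole locus, which does not measure the deletion. It had 20.04 to 22.5 CPM, fragment counts scaled by TMM-adjusted library size, in the 3 KO libraries of batch 1, against 22.5 to 24.85 CPM in the 3 WT libraries, and 30.3 and 22.75 CPM in the KO libraries of batch 3, against 37.7 and 35.4 CPM in the WT libraries (log2 fold change −0.26, SE 0.097, edgeR adjusted p = 0.03 over both batches). Neural progenitor markers were abundant, led by Vim, Fabp7 and Nes, but their summed level was 5250 to 5840 CPM in KO libraries and 8090 to 8765 CPM in WT libraries, without overlap. Of the 12 progenitor markers 4 rose and 5 fell in KO cells over both batches. Of all genes tested 31.7% were called higher and 31.2% lower, shares that also apply to the marker counts below. Markers of Schwann cells and neural crest summed to 122.6 to 158.6 CPM in KO libraries and 107.1 to 156.9 CPM in WT libraries, with Foxd3 at 0 everywhere, and microglial markers summed to at most 2.54 CPM. Of 7 astrocyte markers 5 rose and 2 fell over both batches, with a median log2 fold change of 1.43. The values were 3.45 in Gfap and 2.59 in Aqp4, but −2.13 in Aldh1l1 and −0.70 in Aldoc. In batch 3 alone 2 of 6 tested rose and 2 fell, against 17.3% and 14.4% of all genes tested. Aqp4 there was 1.20 with an edgeR adjusted p of 0.098. The summed level of astrocyte markers was 277.1 to 981.7 CPM in KO libraries and 334.1 to 611.2 CPM in WT libraries. Of 10 neuronal markers 1 rose and 5 fell (median −0.76), and they summed to 1072 to 1318 CPM in KO libraries and 1340 to 1547 CPM in WT libraries, without overlap. Of 6 tested fibroblast and pericyte markers 4 rose and 1 fell (median 1.46), while their sum was 43.9 to 72.4 CPM in KO libraries and 82.3 to 125.7 CPM in WT libraries of batch 1, and 26.02 to 31.5 CPM in KO libraries and 19.9 to 53.5 CPM in WT libraries of batch 3. Oligodendrocyte markers had 2 of 6 higher and 2 lower, and endothelial markers 0 of 4 higher and 1 lower (median 0.48). Oligodendrocyte markers summed to 1504 to 1685 CPM in KO and 1569 to 1903 CPM in WT libraries of batch 1. In batch 3 they summed to 2639 to 2962 CPM in KO and 2100 to 2238 CPM in WT libraries. Endothelial markers summed to 171.1 to 187.3 CPM in KO and 147.8 to 170.3 CPM in WT libraries of batch 1. Only 3 of the 10 had enough counts to be tested in that batch, so the sums rest on few genes. In batch 3 these sums were 6.31 to 6.61 CPM in KO and 3.38 to 3.54 CPM in WT libraries. In bulk RNA, fewer cells of a type and less RNA per cell cannot be told apart. The part of these shifts in the results below was not tested.

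The members differed between KO and WT cells in both directions, as did the genes tested as a whole. Over both batches, with batch as a covariate, 8 of the 9 members had enough counts to be tested, of which 3 rose in KO cells (Gli2, Boc and Smo) and 4 fell (Dhh, Hhip, Cdon and Gli3). Calls at an adjusted p below 0.05 were common in this comparison: 62.9% of the 14583 genes tested passed, 31.7% of them higher and 31.2% lower in KO cells, so 7 of 8 is a count to be read against that background. The median log2 fold change of the 8 was 0.02, beside 0.01 for all genes tested. In batch 1 alone 4 members were higher and 3 lower in KO cells, against 34.8% and 34.6% of all genes tested. In batch 3 alone 1 was higher and 3 lower, against 17.3% and 14.4%.

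**Figure D1:**
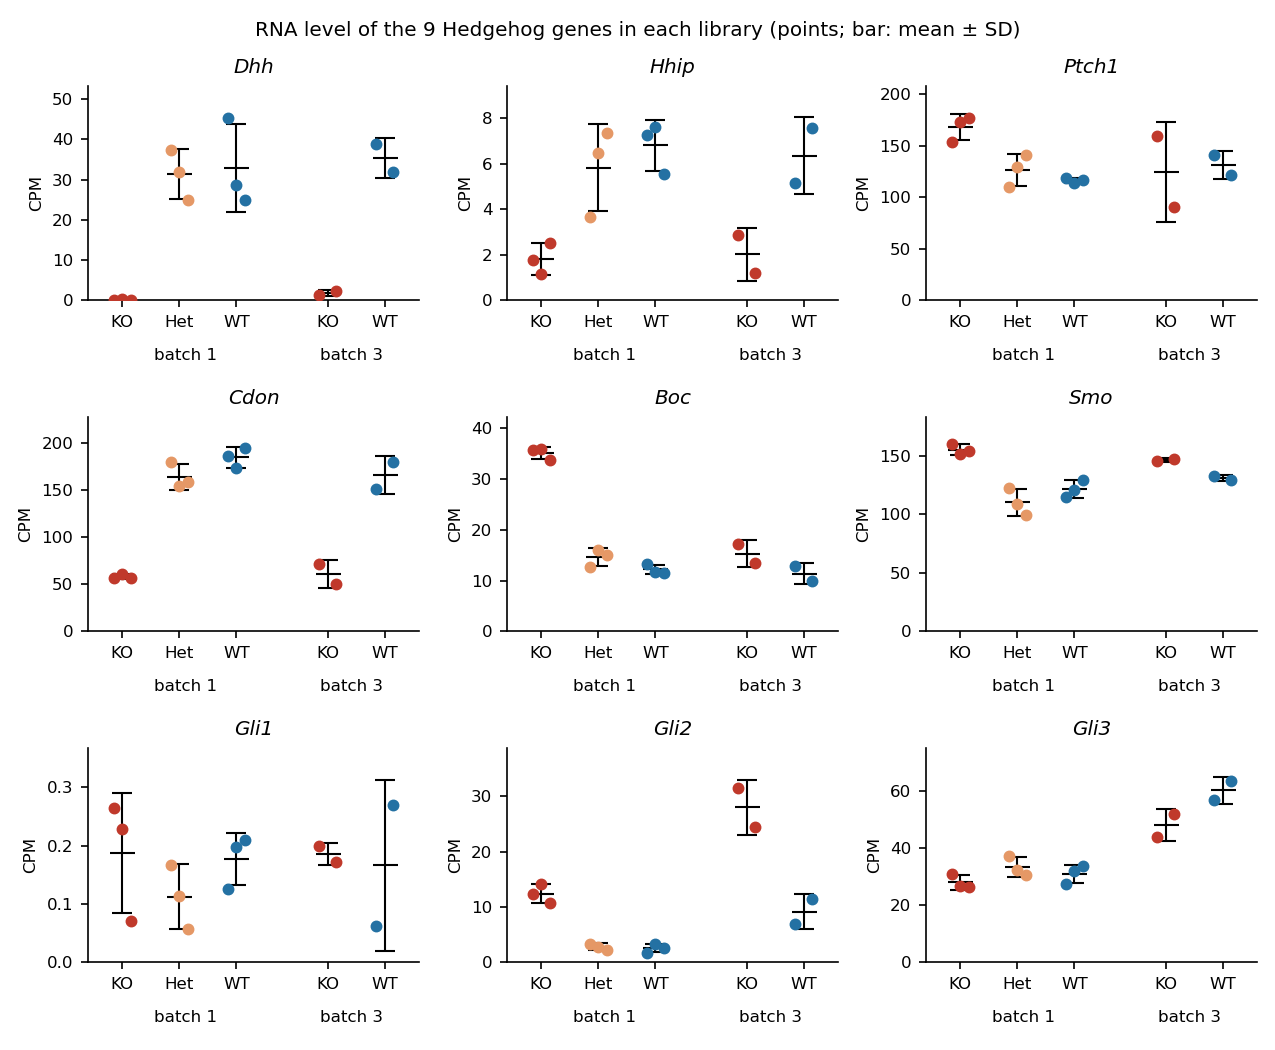
RNA level of the 9 Hedgehog genes in CPM (linear axis from 0) in each library. Points are libraries, ordered KO, Het, WT in batch 1 and KO, WT in batch 3, and bars give the mean ± SD (n = 3 in batch 1, n = 2 in batch 3). Dhh, Hhip and Cdon of the KO libraries lie under every Het and WT library of their batch, and Gli2 lies above them.

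The ligand gene Dhh (mm10 chromosome 15, 98891153 to 98898540, minus strand) lost nearly all its RNA. It had 0.211, 0.285 and 0.0704 CPM in the KO libraries of batch 1, which is 4, 5 and 1 fragments, against 37.3, 31.9 and 24.9 CPM in the Het libraries and 45.3, 28.6 and 24.8 CPM in the WT libraries. In batch 3 it had 1.39 and 2.36 CPM in the KO libraries and 38.9 and 31.8 CPM in the WT libraries. All 5 KO libraries thus lay far under all Het and WT libraries, and the KO libraries of batch 3 kept more Dhh than those of batch 1. The log2 fold change was −5.41 over both batches (SE 0.43, adjusted p = 3.6e-07), a level 42.6-fold lower in KO cells, with −7.33 in batch 1 (SE 0.43) and −4.22 in batch 3 (SE 0.28). The difference between the batches was itself past the threshold (−3.11, SE 0.65, adjusted p = 0.0076), which 20.8% of all genes tested were. Without KO replicate 2 of batch 3 that difference was −2.68 with an adjusted p of 0.08.

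The other ligand genes were close to 0. Shh, the Sonic hedgehog gene, had 0 fragments in every KO library, against 1 fragment in all in the 3 Het libraries and 2 in all in the 5 WT libraries. Ihh, the Indian hedgehog gene, had 8 fragments in all in the KO libraries of batch 1 and 3 in the WT libraries, and 12 in the KO libraries of batch 3 and 4 in the WT libraries. A count of 0 allows up to 3 fragments, which is 0.158 to 0.211 CPM in a KO library and covers counting error only. Both genes were under the count filter, and a difference was not detectable at this depth.

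Hhip (chromosome 8, 79965851 to 80058008, minus strand) encodes a membrane protein that binds Hedgehog ligands and takes them out of signaling. It had 1.79, 1.14 and 2.54 CPM in the KO libraries of batch 1, against 3.68, 6.46 and 7.38 CPM in the Het libraries and 7.28, 7.63 and 5.54 CPM in the WT libraries. The KO libraries of batch 3 had 2.86 and 1.21 CPM and the WT libraries 5.16 and 7.56 CPM. No KO library reached the lowest Het or WT library of its batch. Hhip was 3.51-fold lower in KO cells (log2 fold change −1.81, SE 0.28, adjusted p = 9.2e-05 over both batches), with −1.92 in batch 1 and −1.66 in batch 3. In batch 3 its adjusted p was 0.023, and 0.051 without WT replicate 2.

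Ptch1 (chromosome 13, 63508276 to 63566197, minus strand) encodes the Patched receptor that restrains Smoothened in the absence of ligand. In batch 1 it had 153.9, 172.9 and 177.2 CPM in the KO libraries, against 109.6, 129.7 and 140.6 CPM in the Het libraries and 118.2, 113.6 and 116.6 CPM in the WT libraries, so that KO libraries lay above all others. It rose in that batch (log2 fold change 0.53, SE 0.086, adjusted p = 2e-04). In batch 3 the KO libraries stood on either side of the WT libraries, at 159.0 and 90.7 CPM, against 140.5 and 121.6 CPM in WT. The log2 fold change there was −0.07 (SE 0.24, adjusted p = 0.85). Over both batches it was 0.29 (SE 0.15, adjusted p = 0.11), and the difference between the batches, 0.60, had an adjusted p of 0.11. Without KO replicate 2 of batch 3 the value over both batches was 0.45 (adjusted p = 0.00033), and without WT replicate 1 of batch 3 it was 0.37 (adjusted p = 0.047). Within batch 3 the value was 0.28 (adjusted p = 0.052) without KO replicate 2, 0.04 (adjusted p = 0.95) without WT replicate 1 and −0.53 (adjusted p = 0.0032) without KO replicate 1.

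Cdon and Boc encode related cell surface proteins that bind Hedgehog ligand together with Ptch1, and they moved in opposite directions. Cdon (chromosome 9, 35421592 to 35507653, plus strand) had 56.7, 60.8 and 56.2 CPM in the KO libraries of batch 1, against 179.8, 154.3 and 158.6 CPM in the Het libraries and 186.5, 173.0 and 194.8 CPM in the WT libraries. The KO libraries of batch 3 had 71.1 and 50.1 CPM and the WT libraries 151.6 and 180.1 CPM. The 5 KO libraries lay between 50.1 and 71.1 CPM and all others at 151.6 CPM or above. Cdon was 3.01-fold lower in KO cells, at −1.59 on the log2 scale (SE 0.099, adjusted p = 5.6e-08 over both batches), with −1.67 in batch 1 and −1.45 in batch 3.

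Boc (chromosome 16, 44485045 to 44558870, minus strand) had 35.7, 36.0 and 33.7 CPM in the KO libraries of batch 1, against 12.7, 16.1 and 15.1 CPM in the Het libraries and 13.3, 11.8 and 11.5 CPM in the WT libraries. In batch 3 it had 17.3 and 13.4 CPM in the KO libraries and 12.9 and 9.92 CPM in the WT libraries. KO libraries were above the others in both batches, but by little in batch 3. The log2 fold change was 1.10 over both batches (SE 0.19, adjusted p = 0.00019), 1.53 in batch 1 (adjusted p = 4e-07) and 0.42 in batch 3 (adjusted p = 0.19). The difference between the batches passed the threshold (1.10, SE 0.22, adjusted p = 0.0053). Without KO replicate 2 of batch 3 the value in that batch was 0.60 (adjusted p = 0.044).

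Smo (chromosome 6, 29735497 to 29761366, plus strand), the transducer itself, was the member with the smallest rise that passed the test. It had 160.5, 151.2 and 153.8 CPM in the KO libraries of batch 1, against 122.6, 108.6 and 99.3 CPM in the Het libraries and 114.7, 120.9 and 129.8 CPM in the WT libraries. Batch 3 gave 145.3 and 147.4 CPM in the KO libraries and 132.8 and 129.4 CPM in the WT libraries. KO libraries lay above the others in each batch, by a margin that was narrow beside that of Gli2. The log2 fold change was 0.27 over both batches (SE 0.067, adjusted p = 0.0032), 0.35 in batch 1 (adjusted p = 0.0017) and 0.16 in batch 3 (adjusted p = 0.35). On the authors' FPKM scale, tested with limma on log2(FPKM + 0.1), it was 0.16 with an adjusted p of 0.13.

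Among the Gli factors, Gli2 rose, Gli3 was almost level and Gli1 was nearly silent. Gli2 (chromosome 1, 118834061 to 119054084, minus strand) encodes the main activator of the pathway. It had 12.4, 14.2 and 10.7 CPM in the KO libraries of batch 1, against 3.40, 2.86 and 2.16 CPM in the Het libraries and 1.76, 3.35 and 2.66 CPM in the WT libraries. Batch 3 gave 31.5 and 24.5 CPM in the KO libraries and 6.96 and 11.4 CPM in the WT libraries. The groups did not overlap within a batch, but 1 WT library of batch 3 lay in the range of the KO libraries of batch 1, on batches scaled separately. Gli2 was 3.90-fold higher in KO cells (log2 fold change 1.97, SE 0.21, adjusted p = 4e-06), with 2.26 in batch 1 and 1.61 in batch 3.

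Gli3 (chromosome 13, 15463353 to 15730027, plus strand), whose product acts mainly as the pathway's repressor, had 31.0, 26.8 and 26.4 CPM in the KO libraries of batch 1, against 37.5, 32.6 and 30.6 CPM in the Het libraries and 27.4, 31.95 and 33.8 CPM in the WT libraries. Batch 3 gave 44.1 and 52.1 CPM in the KO libraries and 57.1 and 63.8 CPM in the WT libraries. The groups overlapped in batch 1 and were apart in batch 3. The log2 fold change over both batches was −0.22 (SE 0.091, adjusted p = 0.047), and neither batch passed alone (−0.15, adjusted p = 0.26 in batch 1, and −0.33, adjusted p = 0.14 in batch 3). The call was lost, at an adjusted p of 0.053 to 0.058, with RLE scaling, DESeq2 or limma on FPKM. It was also lost without any one of KO replicate 2 or 3 or WT replicate 2 or 3 of batch 1, or KO replicate 1, WT replicate 1 or WT replicate 2 of batch 3 (adjusted p from 0.06 to 0.13).

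Gli1 (chromosome 10, 127329882 to 127341579, minus strand), the activator that is itself a target of the pathway, had 1 to 5 fragments in each of the 13 libraries. Its sums were 10 fragments in the 3 KO, 6 in the 3 Het and 9 in the 3 WT libraries of batch 1, and 6 in the 2 KO and 5 in the 2 WT libraries of batch 3. It was under the count filter and no fold is given. Its 3′ end overlaps Arhgap9 by 66 bases. The spans of Gli2, Gli3, Boc and Hhip each overlap a long noncoding RNA gene of the RefSeq table, and the sources used here do not say whether counting used strand.

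**Figure D2:**
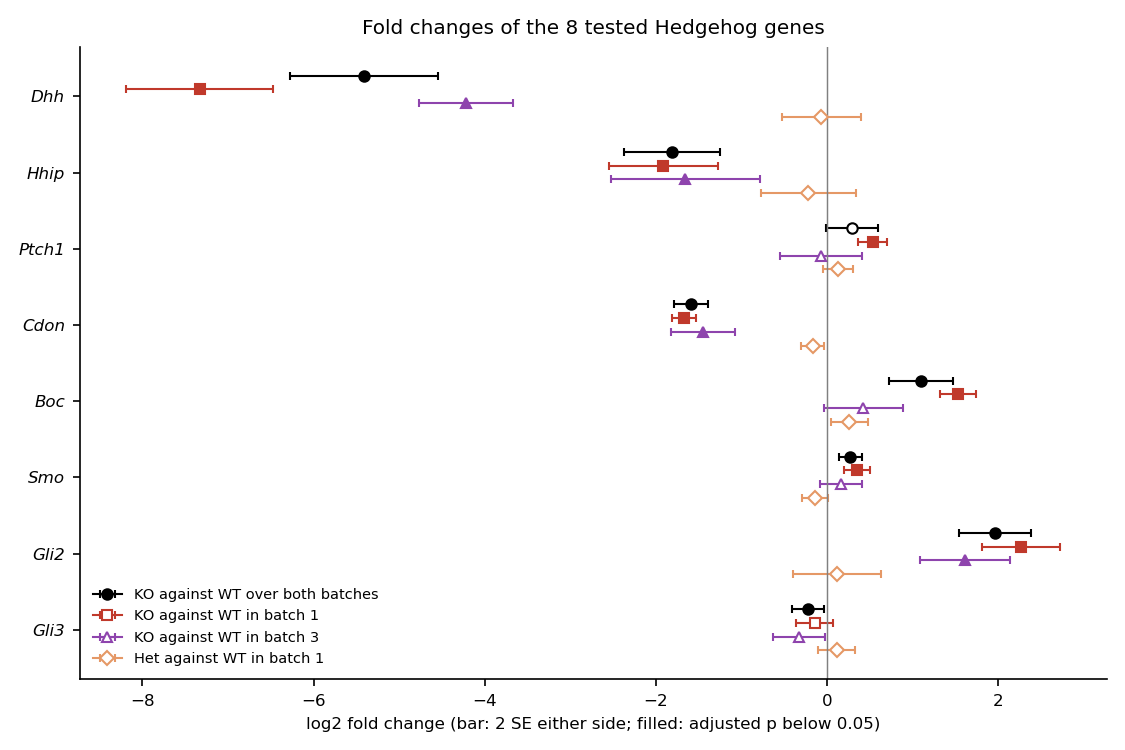
Log2 fold change of the 8 tested members, with 2 standard errors either side, for KO against WT over both batches, in batch 1 and in batch 3, and for Het against WT in batch 1. Filled symbols have an adjusted p below 0.05. Dhh stands at −5.41 over both batches, Gli2 at 1.97, and no Het symbol is filled.

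Heterozygous cells were set against WT cells in batch 1 to ask whether 1 intact allele changes these genes. Of the 8 members tested, 0 were called by edgeR and 0 by DESeq2, and 2 had an unadjusted p below 0.05, Boc (0.26) and Cdon (−0.17 on the log2 scale). In the whole table edgeR called 2 of 14238 genes, which is 0.014%, DESeq2 called 31, and 1236 genes had an unadjusted edgeR p below 0.05. Dhh differed by −0.07 with an SE of 0.23, so that 2 standard errors span −0.53 to 0.39. For Gli2 they span −0.39 to 0.63 around 0.12. KO cells set against Het cells, a comparison that shares the KO libraries with the one above, had 4 members higher (34.2% of all genes tested were) and 3 lower (33.9%). There Dhh differed by −7.26 on the log2 scale, Gli2 by 2.15, Cdon by −1.50 and Boc by 1.27.

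Levels between genes were compared per length, on the authors' FPKM scale and within a batch. In WT cells of batch 1 Smo was highest at 35.9 ± 1.7 FPKM, followed by Cdon at 22.5 ± 0.5, Ptch1 at 15.1 ± 0.5, Dhh at 13.9 ± 5.2, Boc at 4.05 ± 0.10, Gli3 at 3.29 ± 0.38, Hhip at 0.644 ± 0.096, Gli2 at 0.424 ± 0.138 and Gli1 at 0.0546 ± 0.0138 (SD, n = 3). The ranges of Ptch1 and Dhh overlapped, as did those of Hhip and Gli2. In WT cells of batch 3 Gli3, at 7.27 ± 0.58 FPKM, was above Boc at 3.03 ± 0.90, and Gli2, at 1.51 ± 0.30, was above Hhip at 0.650 ± 0.250 (SD, n = 2). In KO cells Smo stayed first, at 40.6 ± 3.3 FPKM in batch 1 and 45.5 ± 0.5 in batch 3. Dhh in KO cells, at 0.0608 ± 0.0237 FPKM in batch 1, was in the range of Gli1 at 0.0510 ± 0.0298, and in batch 3 it was at 0.694 ± 0.258. Gli2 in KO cells, at 1.79 ± 0.30 and 4.61 ± 0.77 FPKM in the 2 batches, stayed under Gli3, at 2.89 ± 0.14 and 5.53 ± 0.75, with overlapping ranges in batch 3.

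The rest of the pathway was read from lists of 96 further genes, of which 87 were tested over both batches. Of these 21 rose and 27 fell in KO cells, which is 55.2% called, beside 62.9% of all genes, and their median log2 fold change was −0.08. Among ligands and ligand release 2 of 7 rose: Scube2, which helps release lipid-bearing ligand from cells, by 2.79 (SE 0.34, adjusted p = 1.2e-05) and the ligand exporter Disp1 by 0.59. Scube2 averaged 10.7 ± 2.1 CPM in KO and 1.16 ± 0.32 CPM in WT libraries of batch 1 (n = 3 each), and 1.63 ± 0.60 CPM in KO and 0.508 CPM in WT libraries of batch 3. Among other receptors and co-receptors 1 of 5 fell, the glypican Gpc4 (−0.64).

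Of 17 genes listed as negative regulators 5 rose and 5 fell. The counts of negative regulators, positive regulators and cilium genes were near the shares of all genes tested, 31.7% called higher and 31.2% lower. The grouping is that of the lists used here, and the role of each gene, Dlg5 included, was not tested. Of 4 listed subunits of protein kinase A, which marks Gli proteins for processing into repressors, 3 were lower in KO cells, beside 31.2% of all genes. These were Prkar2a (−0.86), Prkaca (−0.74) and Prkar1a (−0.37). They fell less in batch 3 (−0.42, −0.46 and −0.14) than in batch 1 (−1.17, −0.92 and −0.54). The edgeR adjusted p of the difference was 0.0012 to 0.045, and Prkar1a was not called in batch 3. Btrc (−0.51), the ubiquitin ligase adaptor of that processing, was also lower. Higher were Dlg5 (1.07, SE 0.14), the ciliary receptor Gpr161 (0.94) and the ciliary kinesin Kif7 (0.42), which organizes Gli proteins at the cilium tip. Fbxw11 (0.20, adjusted p = 0.0027) was also higher in KO cells. Processing of Gli proteins was not measured. Of 12 positive regulators 4 rose, with the kinases Dyrk2 (1.08, SE 0.076, adjusted p = 1.4e-07) and Stk36 (1.01, SE 0.17), and 4 fell, with Evc (−0.60) and Evc2 (−0.35), partners of Smo in the cilium. Of 28 genes of the primary cilium 8 rose, with Wdr19 (0.85) highest, and 10 fell, with Wdr35 (−0.91) lowest.

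Of 18 tested transcriptional targets, which are targets in one tissue or another and not known to be so in these cells, 2 rose and 7 fell, beside 31.7% of all genes called higher and 31.2% lower, and their median log2 fold change was −0.54, beside 0.01 over all genes. The D-type cyclin genes led: Ccnd1 fell to 162.6 ± 21.4 CPM in KO libraries, against 1907 ± 113 CPM in WT libraries of batch 1 (n = 3 each), and had 621.8 ± 106 CPM in KO and 2120 CPM in WT libraries of batch 3. Its log2 fold change was −2.85 (SE 0.30) and that of Ccnd2 was −1.89 (SE 0.36). Nkx2-2 (−1.51, SE 0.23) and Olig2 (−0.59), transcription factors of the ventral neural tube, and Prdm1 (−1.57, SE 0.34) were also lower in KO cells. Igfbp6 (1.89, SE 0.44) and Mycn (0.91) were higher. Igfbp6 was scarce, averaging 1.95 CPM in KO and 0.43 CPM in WT libraries of batch 1, and 0.54 and 0.22 CPM in batch 3. In the fit with a KO by batch term neither gene was called in batch 3 (edgeR adjusted p = 0.26 for each). Ccnd1, Ccnd2, Nkx2-2, Olig2, Dlg5 and Stk36 changed by different amounts in the 2 batches (edgeR adjusted p of the difference from 0.00043 to 0.049). Olig2 was −0.86 in batch 1 and −0.17 in batch 3, where it was not called.

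**Figure D3:**
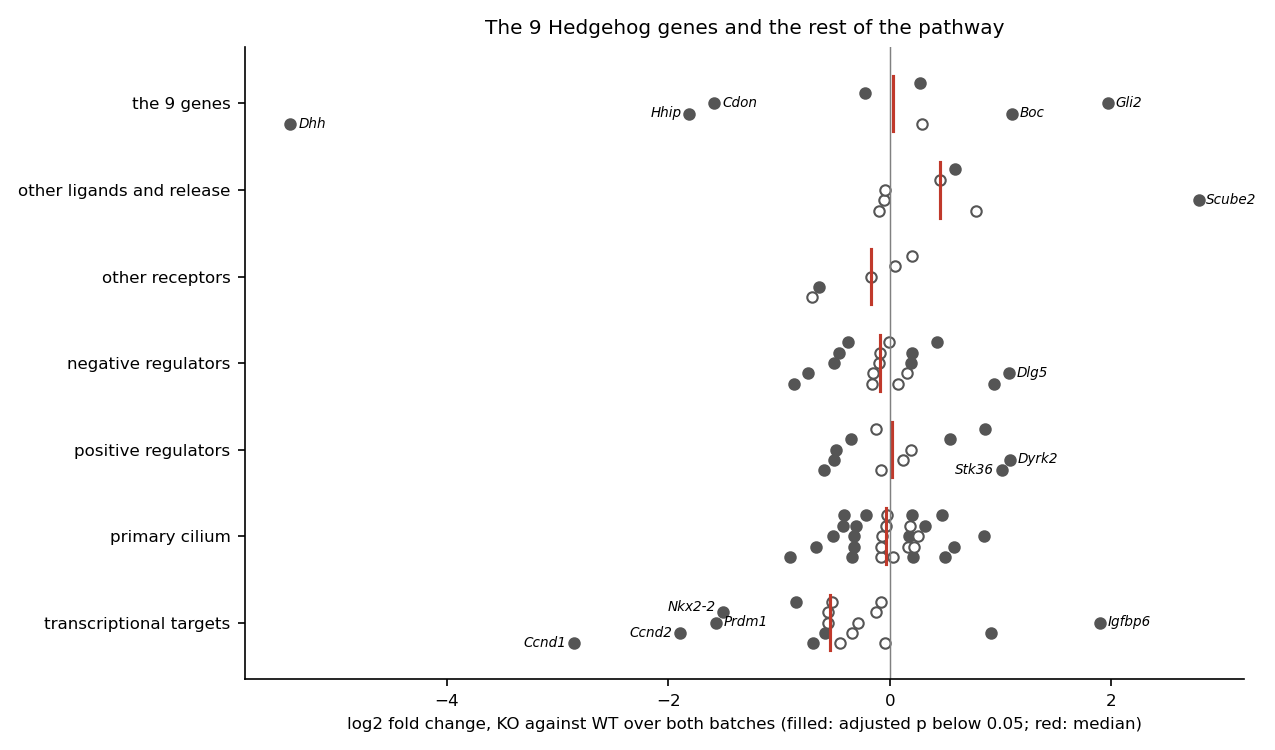
Log2 fold change of KO against WT over both batches for the 8 tested members and for the tested genes of 6 further lists of the pathway. Each point is a gene, filled where its adjusted p is below 0.05, a red line marks the median of a list, and called genes with a change of at least 1 are named. Members lie on both sides of 0 and the transcriptional targets have a median of −0.54.

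The genes whose level followed those of Dhh, Gli2 and Gli3 most closely over the 13 libraries were found by Pearson's r of log2 CPM after the mean of each batch was taken out, among 14583 genes. Nearest to Dhh were Heatr3 (0.996), Prps1 (0.995) and Eprs (0.994), an aminoacyl-tRNA synthetase gene. Among the nearest to Gli2 were Arl4c (0.978) and Scaf1 (0.978). Among the nearest to Gli3 were Crim1 (0.944) and Slc25a24 (0.920). For Dhh and Gli2 the KO libraries stood apart from the rest, so the r describes that split, and the libraries share their batch. On the log2 scale KO cells differed from WT cells by −1.65 (SE 0.17) in Prps1, which was called over both batches.

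At the starts of the 9 genes H3K27ac was the more frequent mark, and Dhh and Gli1 were the members marked by H3K27me3 in every line. A promoter peak was a deposited broad peak within 1 kb of the start of the RefSeq-matching transcript, and each fold enrichment is the authors' value for a peak over its input. H3K27ac peaks lay at 6 of 9 starts in all 4 lines (Hhip, Ptch1, Boc, Smo, Gli2 and Gli3), beside 53.4% of 23906 genes, and at 7 of 9 in at least 1 line, beside 66.3%. H3K27me3 peaks lay at 2 of 9 in all 4 lines (Dhh and Gli1), beside 11.2%, and at 5 of 9 in at least 1 line, beside 24.6%. No test of a difference between genotypes was run on peak values, and those below describe 2 KO and 2 WT lines. The whole H3K27ac lists covered 50.5 and 64.8 megabases in KO lines 530 and 534, against 82.7 and 68.7 in WT lines 532 and 541. The whole H3K27me3 lists covered 48.9 and 65.5 megabases in the KO lines and 58.8 and 42.2 in the WT lines. Lower H3K27ac cover in the KO lines at a gene therefore has the direction of the whole lists. The RNA libraries of batch 3 carry the same 4 line names in the labels.

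**Figure D4:**
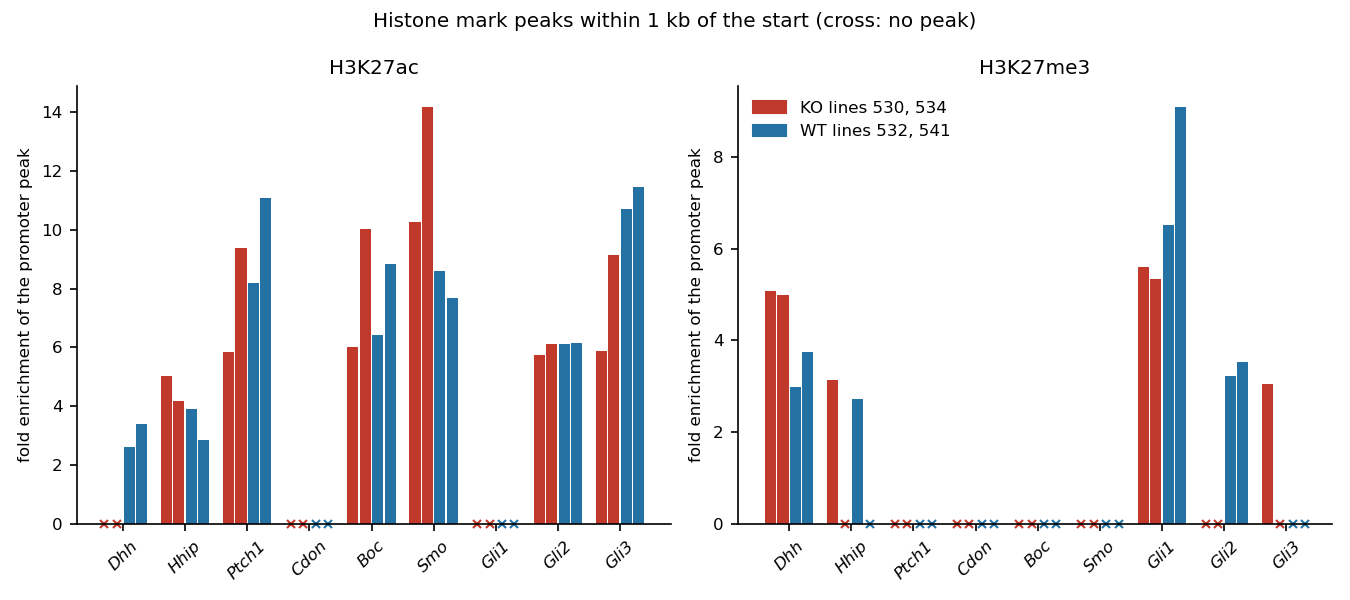
Fold enrichment of the H3K27ac (left) and H3K27me3 (right) peak within 1 kb of the start of each gene, in KO lines 530 and 534 and WT lines 532 and 541. A cross marks a line with no peak. Dhh has H3K27ac in the WT lines only, at 2.60 and 3.38, and H3K27me3 in all 4 lines.

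At Dhh both marks were apart by genotype, as they were in peak cover at Gli2, Gli3 and Ptch1. H3K27ac peaks touched the start region of Dhh in neither KO line, against fold enrichments of 2.60 and 3.38 in WT lines 532 and 541. This arrangement was found at 1.1% of all genes. With a −log10 q of at least 5 no line had an H3K27ac peak within 1 kb of the Dhh start. The peaks were weak and the absence is one of position: the nearest H3K27ac peak of the KO lines began 2.35 and 2.05 kb from the start, inside the gene, so with a window of 2.5 kb all 4 lines had one. Over the gene and 5 kb either side, H3K27ac peaks covered 1.17 and 1.71 kb in the KO lines, at a mean enrichment of 2.96 and 3.55, against 4.22 and 3.55 kb in the WT lines, at 5.15 and 5.08. H3K27me3 ran the other way, and at a −log10 q of at least 5 only the KO lines had a peak within 1 kb of the start. A single domain of 6.28 kb in KO line 530 and of 7.70 kb in KO line 534 spanned the start, at enrichments of 5.08 and 4.99, against peaks of 0.599 kb (2.98) and 1.60 kb (3.74) near the start in WT lines 532 and 541.

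**Figure D5:**
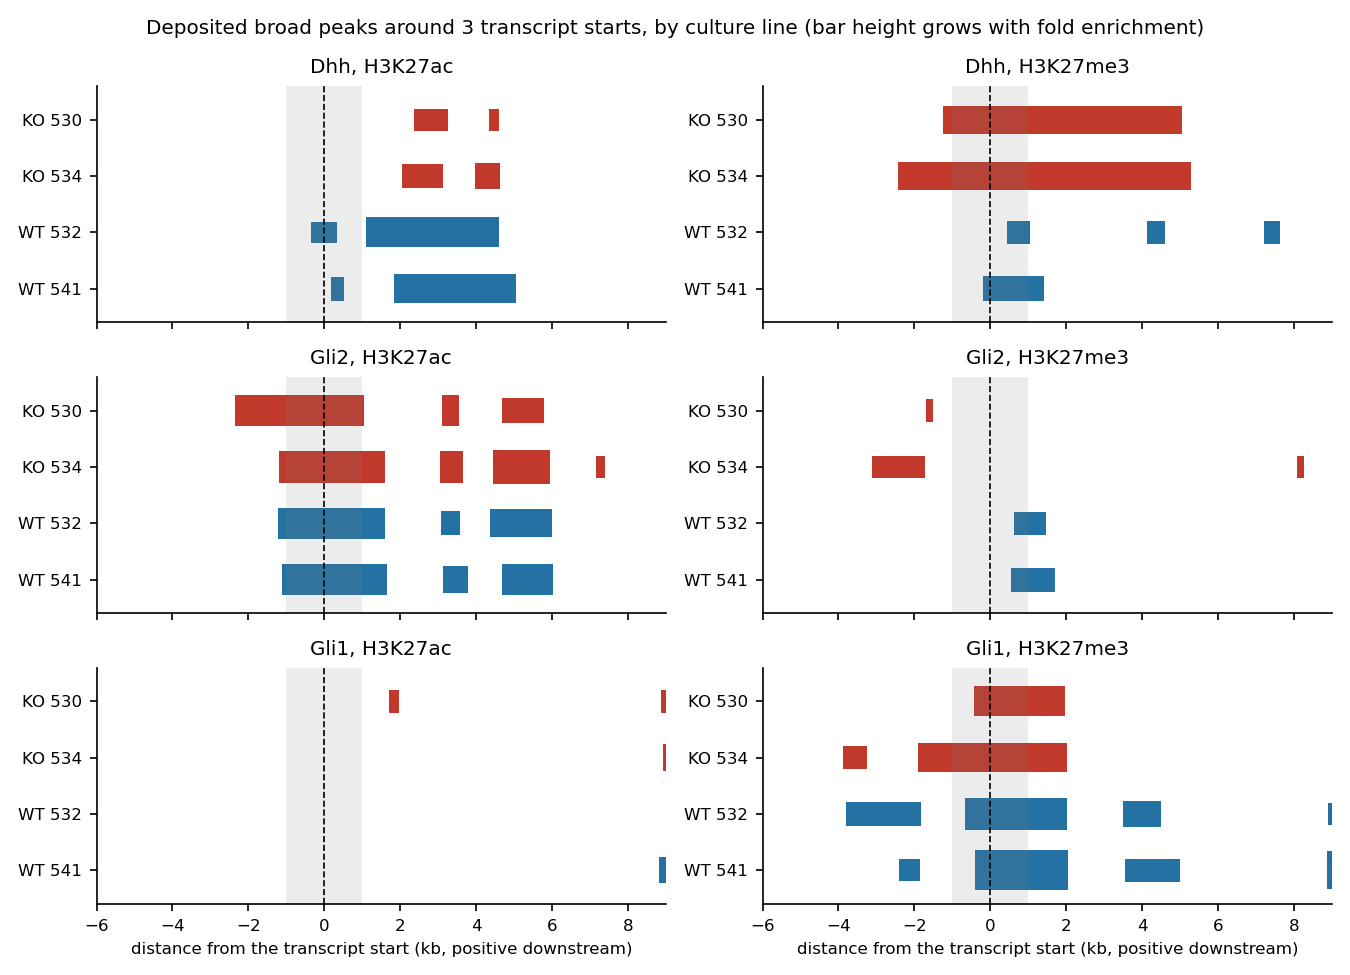
Deposited broad peaks of H3K27ac (left) and H3K27me3 (right) around the starts of Dhh, Gli2 and Gli1 in KO lines 530 and 534 and WT lines 532 and 541, by distance from the start in kb, positive downstream. Bar height grows with fold enrichment and the shaded band is the window of 1 kb either side. At Dhh the H3K27me3 domains of the KO lines are 6.28 and 7.70 kb wide.

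Gli2, which gained RNA, had an H3K27ac peak across its start in every line, with enrichments of 5.73 and 6.12 in KO lines 530 and 534 and 6.12 and 6.16 in WT lines 532 and 541. These values did not separate the genotypes. H3K27me3 lay within 1 kb of the start in neither KO line, against weak peaks of 0.835 and 1.15 kb in the WT lines (3.22 and 3.52), an arrangement found at 0.69% of genes. In the KO lines the nearest H3K27me3 peaks were 1.51 and 1.71 kb upstream of the start, so with a window of 2.5 kb all 4 lines had one. With a −log10 q of at least 5 no line had an H3K27me3 peak within 1 kb of the Gli2 start. Over the whole gene, H3K27me3 peaks covered 1.53 and 4.06 kb in the KO lines and 6.81 and 7.19 kb in the WT lines, at mean enrichments of 3.07, 2.96, 3.55 and 3.40. H3K27ac peaks covered 15.7 and 28.6 kb in the KO lines and 13.1 and 11.2 kb in the WT lines. At Gli3 H3K27me3 peaks covered 7.37 and 7.39 kb in the KO lines and 3.97 and 2.05 kb in the WT lines. H3K27ac peaks there covered 4.03 and 4.91 kb in the KO lines and 6.305 and 6.08 kb in the WT lines. At Ptch1 H3K27ac peaks covered 6.61 and 6.70 kb in the KO lines and 11.2 and 8.32 kb in the WT lines. Its H3K27me3 peaks covered 0.553 and 0.638 kb in the KO lines and 0 kb in both WT lines. Ptch1 RNA was not called over both batches. H3K27ac cover was also lower in both KO lines at Boc, whose RNA rose, and at Cdon, whose RNA fell.

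Gli1 had H3K27me3 across its start in all 4 lines, with enrichments of 5.60 and 5.34 in the KO lines and 6.51 and 9.09 in the WT lines, and no H3K27ac peak within 1 kb in any. Its RNA had 1 to 5 fragments a library. Ptch1, Smo, Boc and Cdon had no H3K27me3 peak at the start in any line. At Hhip weak H3K27me3 peaks were found in KO line 530 (3.13) and WT line 532 (2.71), and at Gli3 in KO line 530 (3.05).

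Smo had the strongest H3K27ac peak of the members in the KO lines, at 10.3 and 14.2 in lines 530 and 534, above 8.58 and 7.68 in WT lines 532 and 541. At Ptch1 the enrichments were 5.83 and 9.40 in the KO lines and 8.19 and 11.1 in the WT lines, at Boc 5.996 and 10.04 in the KO lines and 6.42 and 8.84 in the WT lines, and at Gli3 5.88 and 9.16 in the KO lines and 10.7 and 11.4 in the WT lines. The genotypes overlapped at Ptch1 and Boc and were apart at Smo and Gli3. Hhip kept H3K27ac at its start in the KO lines (5.03 and 4.18), where it was above the WT lines (3.91 and 2.85), although its RNA was lower. Peak enrichments from lists of different depth are not a measure of change.

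Cdon had no H3K27ac peak within 1 kb of its RefSeq-matching start (35452076) in any line. The RefSeq span of Cdon begins further upstream, at 35421528. Assembled Cdon transcripts began near that position, at 35421662 in batch 1 and 35421592 in batch 3. There an H3K27ac peak lay in all 4 lines, with its nearest edge 29.5 to 30.0 kb upstream of the RefSeq-matching start. Its enrichments were 6.84 and 11.0 in KO lines 530 and 534 and 6.43 and 8.70 in WT lines 532 and 541. The printed Cdon stretch, with 1 CpG, and the promoter peak counts above belong to the downstream start. The lower Cdon RNA in KO cells thus came with an H3K27ac peak that was present in both genotypes.

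m6A was mapped in WT cells only, so these regions show which transcripts carried the mark and not how it changed. The 4 lists set 2 immunoprecipitations against 2 inputs and share libraries, so they are not 4 replicates. An exonic region present in all 4 lists was found at 3 of the 9 members, beside 38.8% of the 14583 genes tested for RNA. Gli2 held 3 such regions, all in its last exon 14: chromosome 1, 118834532 to 118835024, with enrichments of 6.15 to 7.74 over input, 118836086 to 118836379 (5.13 to 6.13) and 118837966 to 118838174 (3.96 to 5.71). Gli3 held 1 region of 1361 bases in its last exon 15, chromosome 13, 15724905 to 15726265 (4.66 to 5.25). Ptch1 held 3, in exon 1 (63565297 to 63566195, 5.30 to 6.17), exon 2 (63563645 to 63563848, 3.08 to 5.17) and the last exon 23 (63511567 to 63512043, 4.07 to 4.51). Of these 3 genes Gli2 rose in KO cells, Gli3 had the weak fall given above and Ptch1 was not called over both batches.

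Dhh, Cdon and Smo had regions in 1 or 2 of the 4 lists and none in all 4. Those of Dhh lay in exon 1 (chromosome 15, 98898047 to 98898517) and in its last exon 3 (98893852 to 98893993), each in 2 lists. Hhip, Boc and Gli1 had none in any list. The 3 members with the largest loss of RNA in KO cells, Dhh, Hhip and Cdon, had no m6A region shared by all 4 lists. Gli2, with the largest gain, had 3, but Boc, with the next largest gain (1.10), and Smo, which also rose, had none. In WT cells of batch 1 Gli2, with 3 shared regions, had 0.424 FPKM, whereas Hhip had 0.644 FPKM and Boc 4.05 FPKM with none. The part of RNA level in which regions were listed was not tested.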

How the data were processed

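The members and the gene lists were chosen with earlier results of these data known. RNA was compared in 13 libraries. Per the file headers, the deposited RNA values are estimated counts of fragments per locus and FPKM values scaled by the authors, on transcripts assembled separately for each batch. Of the estimated counts 5.31% in batch 1 and 2.31% in batch 3 were not whole, and they were rounded. The submitters' processing notes name TopHat2 2.1.0, Cufflinks, Cuffdiff, Bowtie2 2.3.1, MACS2 and mm10, without roles. The table of batch 2 was identical to that of batch 1, so the 6 libraries labelled batch 2 were not used here. Depth was 13784800 to 19482407 fragments on named genes a library, and CPM here uses these totals scaled by TMM. Genes were joined to loci by gene name, and a locus with status HIDATA was left out.

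Counts were filtered with filterByExpr, scaled by TMM and tested with edgeR 4.0.16 (robust quasi-likelihood F test, Benjamini-Hochberg adjustment over all genes tested, threshold 0.05). The test over both batches had batch as a covariate over all 13 libraries, and a KO by batch term tested the difference. The SE is the absolute log2 fold change over the square root of F. The functions were tested on simulated data. Alternatives were DESeq2 1.42.0, RLE scaling, no filter, limma 3.58.1 on log2(FPKM + 0.1) for genes of at least 0.5 FPKM in 2 libraries, loci with 1 known gene, loci of status FAIL left out, and each library left out in turn.

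The peak lists, per the file headers, are the authors' broad peaks of 1 immunoprecipitation against 1 input, each with a deposited fold enrichment (a ratio) and a deposited −log10 q of at least 1.00. No replicates were pooled. m6A regions are exonic peaks merged over the 4 lists. Coordinates are 1-based mm10. The text names the 9 members, other pathway genes called over both batches with a log2 fold change of at least 1 either way (others were named after their values were seen, as examples), the leading markers, and the 3 genes with the highest r. Peaks carry no depth here, so no intervals are given. Some genes that these rules name are not reported here.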

Additional observations from a re-analysis of the deposited data

Results flagged for a closer look

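The KO effect differed between the batches for 2 of the 8 tested members and for 5 of the 9 other pathway genes named with a change of at least 1, by the KO by batch term of edgeR (adjusted p over 14583 genes). Values are log2 fold changes, batch 1 minus batch 3. Dhh fell further in batch 1 (−7.33) than in batch 3 (−4.22), a difference of −3.11, and Boc rose in batch 1 (1.53) and had 0.42 in batch 3, a difference of 1.10. Ccnd1 (−3.55 and −1.77) differed by −1.78, Ccnd2 (−2.76 and −0.55) by −2.20 and Nkx2-2 (−2.01 and −0.84) by −1.17. Dlg5 (1.36 and 0.66) differed by 0.70 and Stk36 (1.32 and 0.53) by 0.79. In all 7 the effect in batch 3 had the sign of that in batch 1 and was smaller. Of all genes tested 20.8% passed this test, and the batches differ in their culture lines and assemblies, which cannot be told apart from the batch.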

How the results depend on the processing

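Counts of members called over both batches, in batch 1 and against Het stayed within 1.5 times the reported count under every alternative run. In batch 3, leaving out 1 library gave 1 to 2 members called higher, and 3 to 12 other pathway genes called higher and 5 to 21 lower, against 7 and 11 with all libraries, and limma on log2 FPKM gave 3 higher and 7 lower. The difference between batches was called for 1 to 3 members and 8 to 31 other genes. Sign changes were found only for log2 fold changes that were not called. Leaving out 1 library gave −0.238 to 0.233 for Dhh, −0.09 to 0.33 for Gli2 and −0.423 to 0.028 for Hhip in Het cells, −0.525 to 0.285 for Ptch1 in batch 3, and −0.465 to 0.059 for Cdon and −0.778 to 0.478 for Hhip in the difference between batches. Dhh in Het cells was 0.053 with limma. Over both batches, log2 fold changes of the 9 named pathway genes kept their direction and their call under every alternative run. With a −log10 q of at least 5, H3K27me3 lay at 1 member in all 4 lines and at 2 in any, and 3 m6A regions were left. The separation by genotype of H3K27ac at the Dhh start and of H3K27me3 at the Gli2 start was lost there. Regions in at least 1 list were 19, at 6 members. With the starts of all assembled transcripts, chosen after seeing the data, H3K27ac lay at 8 members in all 4 lines, Cdon and Dhh included. The cause was not tested. No paired analysis was possible because the labels name each RNA library by a culture number that no other RNA library carries. The replicate numbers used here only name libraries. The m6A groups, whose labels share numbers, give no test. Gli1, Shh and Ihh were limited by depth.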
